A study of Mus musculus with 10 samples.

Results

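Hox genes encode the homeodomain transcription factors that give cells their position along the head-to-tail axis. Mammals carry them in 4 clusters, Hoxa, Hoxb, Hoxc and Hoxd, and each member has a paralog number that follows its place in the cluster. Low numbers are used early and towards the head, and high numbers later and towards the tail and limbs. Retinoic acid and caudal factors such as the Cdx proteins open the clusters during development, PBX and MEIS proteins bind DNA together with Hox proteins, and Polycomb complexes hold the clusters silent in embryonic stem (ES) cells. In the forming heart, anterior members such as Hoxb1 and Hoxa3 are known from progenitors that respond to retinoic acid. RYBP binds the RING1 ligases and is a subunit of variant Polycomb repressive complex 1. The members were all genes of the count table whose mouse symbol is Hoxa, Hoxb, Hoxc or Hoxd followed by digits alone. Of 39 such symbols, 38 matched a row among 36191 gene IDs, 11 in Hoxa (chromosome 6), 10 in Hoxb (chromosome 11), 9 in Hoxc (chromosome 15) and 8 in Hoxd (chromosome 2). Hoxd4 matched no row.

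The study followed wild type and Rybp null mutant mouse ES cells, both on a 129x1 x 129S1 background, through differentiation to cardiac cultures. Embryoid bodies were made in hanging drops, and total RNA was sequenced from ES cells (day 0, 1 library of each genotype) and from cultures at day 8 and day 14 (2 libraries of each genotype and day, labelled as replicates). Nothing in the labels says whether the replicates came from separate cultures, so the p-values measure the spread between these libraries. The 10 libraries held 3028153 to 6890792 counts, the largest being the null library of day 0. Levels are given in counts per 1000000 counts of the library (CPM). Rybp itself, on chromosome 6, had 20.4 to 67.6 CPM in the 5 wild type libraries and 0.297 to 1.21 CPM in the 5 null libraries, so each library stood on the side of its label. The labels do not say which exons the mutation removes or whether the null line is 1 clone. Of 9 cardiomyocyte markers, 8 could be tested. At day 8 all 8 were lower in the null cultures, and their summed level was 2130 to 2630 CPM in wild type against 60.9 to 104 CPM, with 3 of the 9 at 0 in both null libraries. By day 14 the sums were 924 to 1060 against 185 to 252 CPM, with 5 of 8 called lower. Over all genes 0.759% were called lower at day 8 and 0.354% at day 14. In such mixed cultures fewer cells of a type and less RNA per cell cannot be told apart.

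RefSeq promoter windows on GRCm38.p6, from 250 bases before to 50 after a start, were at hand for 21 of the 38 genes (23 windows). They are shown because CpG-dense sequence is where variant PRC1 is known to sit. The Hox windows held a median of 15 CpG dinucleotides, range 4 to 45, against 7 over all 32851 windows, and 20 of the 23 were above that median. The ratio of observed to expected CpG was 0.66 in the median Hox window against 0.38 over all. Hoxa5, with at most 0.330 CPM in any library, had 29 CpGs in its window, and Hoxa9, at 2.23 to 15.1 CPM from day 8 on, had 4. The 250 bases before the start are printed for a member with at most 1 count in any library (Hoxa5), one with higher null values at day 8 (Hoxa10) and the 2 members called lower from day 8 to day 14 (Hoxd9 in wild type, Hoxd1 in null cultures), on the strand of the gene, with CpG in capitals.
Hoxa5, chr6:52204588-52204837, minus strand: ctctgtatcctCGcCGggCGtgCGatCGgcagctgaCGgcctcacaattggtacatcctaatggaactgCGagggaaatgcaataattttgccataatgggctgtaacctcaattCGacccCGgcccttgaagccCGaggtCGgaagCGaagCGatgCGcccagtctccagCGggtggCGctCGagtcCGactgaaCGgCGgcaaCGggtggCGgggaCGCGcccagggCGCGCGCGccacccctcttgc
Hoxa10, chr6:52234940-52235189, minus strand: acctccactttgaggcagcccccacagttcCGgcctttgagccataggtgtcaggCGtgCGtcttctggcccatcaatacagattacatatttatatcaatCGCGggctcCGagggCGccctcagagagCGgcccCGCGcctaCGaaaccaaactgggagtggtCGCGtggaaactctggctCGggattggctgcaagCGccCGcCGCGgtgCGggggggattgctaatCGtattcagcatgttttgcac
Hoxd9, chr2:74697513-74697762, plus strand: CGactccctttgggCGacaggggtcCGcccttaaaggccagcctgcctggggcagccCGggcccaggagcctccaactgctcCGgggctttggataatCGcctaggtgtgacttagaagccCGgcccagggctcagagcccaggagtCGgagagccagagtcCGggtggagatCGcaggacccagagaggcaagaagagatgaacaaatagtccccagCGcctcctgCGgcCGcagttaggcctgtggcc
Hoxd1, chr2:74762730-74762979, plus strand: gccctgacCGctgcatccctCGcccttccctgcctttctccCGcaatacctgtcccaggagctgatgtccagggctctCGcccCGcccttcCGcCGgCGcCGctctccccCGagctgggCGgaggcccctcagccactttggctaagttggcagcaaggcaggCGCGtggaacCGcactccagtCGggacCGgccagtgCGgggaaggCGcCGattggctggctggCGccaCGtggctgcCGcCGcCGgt
The counts in these 4 stretches were 28 CpGs for Hoxa5, 20 for Hoxa10, 13 for Hoxd9 and 24 for Hoxd1, so Hoxa5 had the most of them. Hoxa10 has another RefSeq start, whose window held 12 CpGs. Both strands of the whole windows were searched for 4 motifs. A caudal-type motif, TTTATG, lay in 4 of the 23 Hox windows and in 11.9% of all windows. The PBX-HOX type motif TGATTNAT lay in 2 Hox windows and in 3.22% of all. Direct repeats of AGGTCA spaced by 2 or by 5 bases, the kind bound by retinoic acid receptors, lay in 0 Hox windows and each in 0.00913% of all.

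The clusters were near silence in ES cells. Of the 38 members, 27 had 0 counts in the wild type ES library and 15 in the null one, which held 6890792 counts against 3419681. The 38 genes together reached 11.1 CPM (38 counts) in wild type and 17.0 CPM (117 counts) in null ES cells. At day 8 the wild type libraries reached 172 and 200 CPM and the null libraries 264 and 179 CPM. At day 14 the values were 199 and 186 CPM in wild type and 176 and 258 CPM in null. The later libraries thus all stood far above day 0, and at either day the range of the null libraries overlapped that of wild type. Between the null replicates, 21 of 27 tested Hox genes were higher in replicate 1 at day 8 and 21 of 27 in replicate 2 at day 14. Wild type replicates split 13 to 14 at both days. How all genes split between these replicates was not counted, so the lean cannot be called particular to Hox genes.

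**Figure D1:**
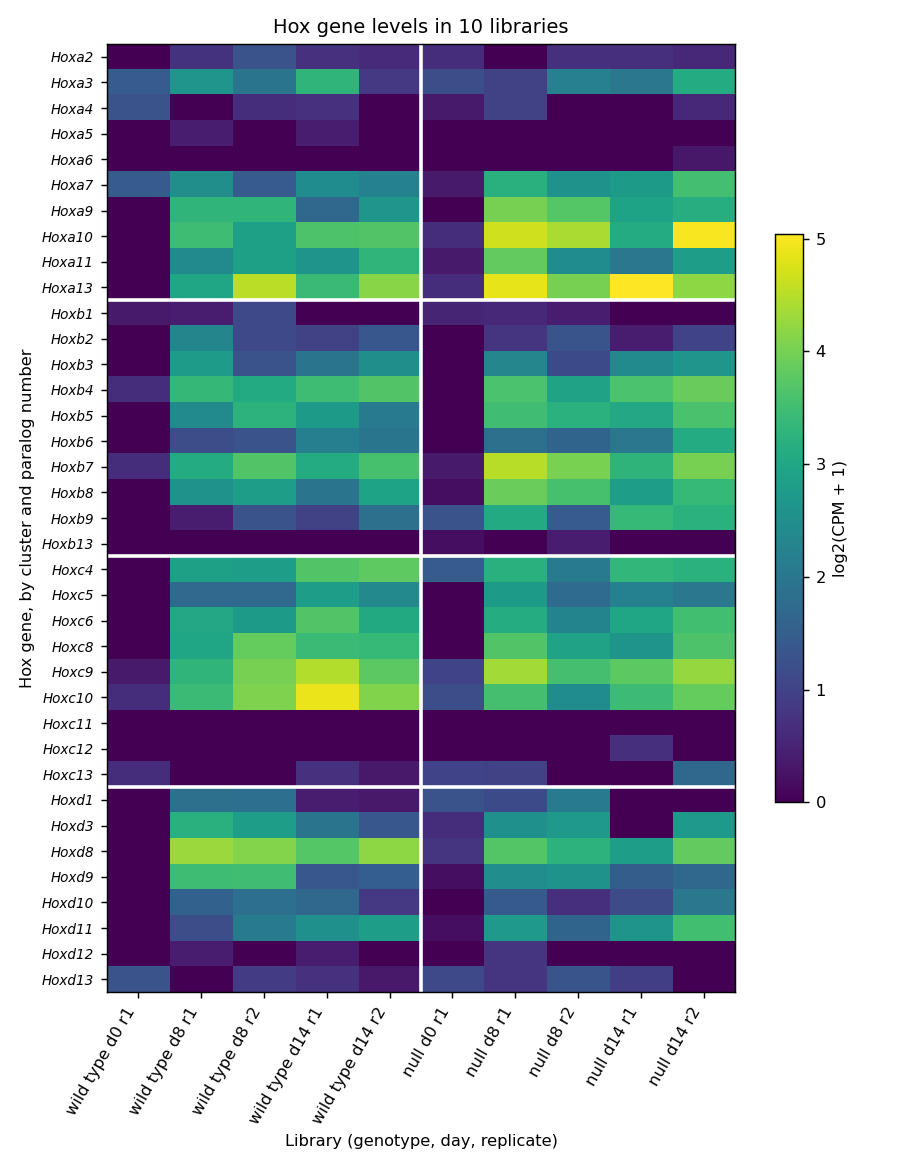
Level of 37 Hox genes in the 10 libraries as log2(CPM + 1), genes ordered by cluster and paralog number and libraries by genotype and day. The day 0 columns are dark for nearly all genes, and Hoxa5, Hoxa6, Hoxc11, Hoxc12 and Hoxd12 are dark in all columns.

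By cluster, the Hoxa genes summed to 54.3 ± 6.68 CPM in wild type and 84.5 ± 16.6 CPM in null at day 8 (mean ± SD, n = 2 here and below). At day 14 they summed to 50.1 ± 0.713 and 74.1 ± 15.9 CPM. The Hoxb genes summed to 39.2 ± 1.69 and 60.5 ± 17.0 CPM at day 8 and to 39.5 ± 6.83 and 60.9 ± 15.2 CPM at day 14. In both clusters the 2 null libraries were above the 2 wild type libraries at each day. The Hoxc genes summed to 41.6 and 58.4 CPM in wild type and 64.4 and 31.2 CPM in null at day 8, and to 76.4 ± 19.3 and 57.4 ± 13.3 CPM at day 14, with overlapping libraries at both days. The Hoxd genes summed to 42.5 ± 1.03 and 29.0 ± 3.17 CPM at day 8, where both null libraries were below both wild type ones, and to 26.4 ± 2.30 and 24.8 ± 13.7 CPM at day 14, where they overlapped. These sums over chosen genes were not tested. Counts of other genes on chromosome 6, where Hoxa and Rybp lie, were also shifted towards the null cells, with a median log2 fold change of 0.21 over 738 genes averaged over both days, against -0.08 on chromosome 11, -0.02 on chromosome 15 and -0.07 on chromosome 2.

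**Figure D2:**
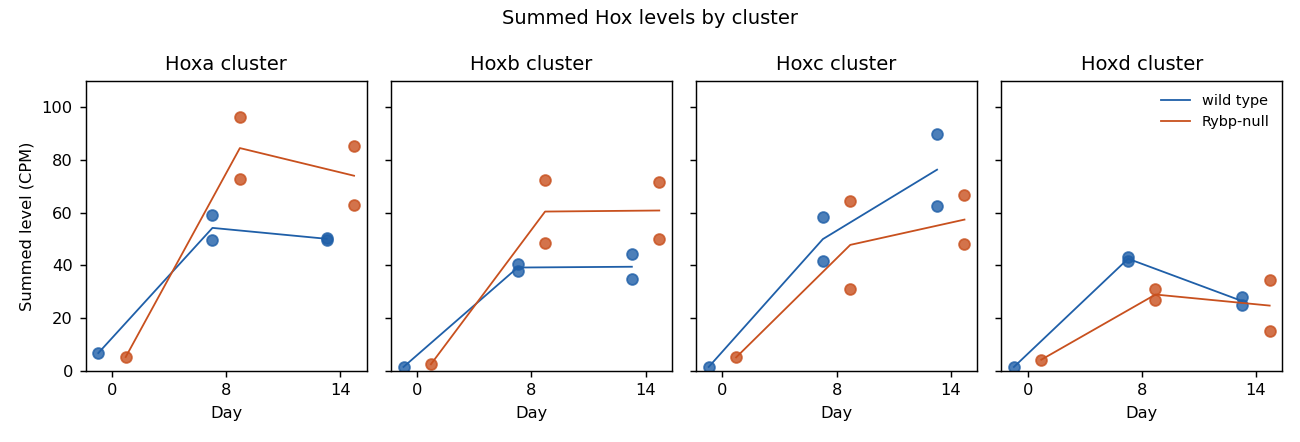
Summed level (CPM) of the Hox genes of each cluster by day (days drawn at equal spacing), wild type in blue and Rybp-null in orange, with 1 point per library, offset sideways by genotype, and lines through the group means. The null points lie above the wild type points at days 8 and 14 in Hoxa and Hoxb, and below them at day 8 in Hoxd.

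By position, the 16 genes of paralog numbers 9 to 13 made 78.1 ± 20.8 CPM in wild type and 105 ± 38.3 CPM in null cultures at day 8, and 86.3 ± 4.40 and 105 ± 20.5 CPM at day 14. The 14 genes numbered 4 to 8 made 77.5 ± 5.42 and 93.7 ± 29.1 CPM at day 8, and 88.5 ± 2.41 and 93.7 ± 29.6 CPM at day 14. The 8 genes numbered 1 to 3, those of the head end, made 30.4 ± 6.97 and 22.6 ± 7.14 CPM at day 8, and 17.6 ± 7.48 and 18.0 ± 7.89 CPM at day 14. Paralog number 7 made 12.8 ± 0.875 CPM in wild type and 25.1 ± 6.56 CPM in null cultures at day 8, and number 13 made 14.9 ± 11.3 and 23.2 ± 8.91 CPM. Paralog number 12 stayed under 1 CPM in the mean of each group. Per kilobase of exon, the leading members at day 8 in wild type were Hoxc10 at 6.72, Hoxd8 at 6.34, Hoxb7 at 6.26 and Hoxa13 at 5.86 CPM per kb, which lay within their replicate spread of one another. At day 8 in null cultures Hoxb7 had the highest mean, 12 CPM per kb, before Hoxa13 at 8.70 and Hoxa10 at 6.87, and the libraries of Hoxb7 and Hoxa13 overlapped. At day 14 the highest mean was that of Hoxc10 in wild type, at 11.8 CPM per kb, where its libraries overlapped those of Hoxc9, and that of Hoxa13 in null cultures, at 9.96, where it overlapped Hoxb7.

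Of the 38 genes, 27 had enough counts to be tested, and 11 did not (Hoxa2, Hoxa4, Hoxa5, Hoxa6, Hoxb1, Hoxb13, Hoxc11, Hoxc12, Hoxc13, Hoxd12 and Hoxd13). The untested members ranged from 0 to 2.28 CPM over all libraries, and Hoxc11 had 0 counts in all 10. From day 0 to day 8, edgeR's quasi-likelihood test called 19 of the 27 higher in wild type, beside 40.5% of all 15819 genes called and 21.2% called higher, and 20 of 27 higher in null cultures, beside 37.7% called and 19.0% higher. None was called lower. All 27 fold changes were positive in both genotypes. In wild type, 20 of the 27 had 0 counts at day 0, so most members passed the count filter through the later days alone and had to differ, and neither count nor direction supports more than the levels themselves. The fitted median log2 fold change was 6.29 in wild type and 4.92 in null cultures, against 0.13 and 0.04 over all tested genes. With members at 0 counts set to their bound (a floor of 3 counts over the group), the medians were 2.81 and 3.62. The order of the genotypes by this median turned with that floor, since the null ES library was the deeper one and 10 of the 27 were at 0 there. The fit takes the spread of the single day 0 library of each genotype from the other days.

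In the Hoxa cluster, 4 of 7 tested genes were called higher from day 0 to day 8 in wild type and 6 of 7 in null cultures. All 7 fold changes were positive in both genotypes. As stated above, such counts support no more than the levels, here and in the other clusters, and do not compare the genotypes. Hoxa7, a trunk gene, had 1.75, then 4.62 and 1.72, then 4.45 and 3.67 CPM in wild type, and 0.290, then 8.16 and 5.05, then 5.74 and 10.6 CPM in null libraries. Hoxa7 was the 1 Hox gene whose 4 later null libraries all exceeded the 4 later wild type libraries. Hoxa9, an activator of blood progenitor programmes, had 0, then 8.92 and 8.88, then 2.23 and 5.25 CPM in wild type, and 0, then 15.1 and 12.2, then 6.64 and 7.85 CPM in null libraries. Hoxa10, known for patterning of the trunk and uterus, had 0, then 10.2 and 6.30, then 11.5 and 11.8 CPM in wild type, and 0.580, then 24.7 and 20.2, then 7.55 and 31.1 CPM in null libraries. Both were higher in the 2 null libraries than in the 2 wild type libraries of day 8, whereas for Hoxa10 the null replicates of day 14 lay on either side of wild type. Hoxa11, a limb and kidney gene, had 0, then 4.29 and 6.30, then 5.09 and 8.92 CPM in wild type, and 0.290, then 13.2 and 4.46, then 3.02 and 6.07 CPM in null libraries. Hoxa13, the most posterior member, which acts in distal limb, hindgut and umbilical vessels, had 0, then 6.93 and 22.0, then 9.54 and 16.8 CPM in wild type, and 0.580, then 27.9 and 15.2, then 32.0 and 17.2 CPM in null libraries. The genotypes overlapped for Hoxa11 at both days and for Hoxa13 at day 8. The level of Hoxa13 at day 8 was at least 17.1-fold that at day 0 in wild type, and in null cultures the pooled ratio was 38.2 (95% counting interval 14.6 to 142).

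In the Hoxb cluster, 5 of 8 tested genes were called higher at day 8 than at day 0 in wild type and 6 of 8 in null cultures. Hoxb3, a hindbrain gene, had 0, then 5.94 and 1.43, then 2.86 and 4.72 CPM in wild type, and 0, then 4.08 and 1.19, then 4.23 and 5.31 CPM in null libraries. Hoxb4, which promotes blood stem cell growth, had 0.585, then 9.25 and 7.44, then 10.2 and 11.8 CPM in wild type, and 0, then 11.3 and 6.54, then 11.2 and 13.7 CPM in null libraries. Both genes overlapped between genotypes at days 8 and 14. Hoxb5 had 0, then 4.29 and 8.59, then 5.73 and 3.15 CPM in wild type, and 0, then 10.3 and 8.32, then 7.25 and 11.1 CPM in null libraries. Hoxb6 had 0, then 1.32 and 1.43, then 3.50 and 2.89 CPM in wild type, and 0, then 2.64 and 2.08, then 3.02 and 7.59 CPM in null libraries. Hoxb5 was apart between genotypes at day 14 and Hoxb6 at day 8, in both cases with null above. Hoxb7 had 0.585, then 7.60 and 11.7, then 7.63 and 11 CPM in wild type, and 0.290, then 21.6 and 15.4, then 8.76 and 15.2 CPM in null libraries. Hoxb8, a trunk and myeloid gene, had 0, then 4.95 and 6.01, then 2.86 and 6.56 CPM in wild type, and 0.145, then 13.9 and 11, then 6.04 and 9.36 CPM in null libraries. For both, the null libraries were above wild type at day 8 and overlapped it at day 14. Hoxb9, which acts in the thoracic skeleton, had 0, then 0.330 and 1.43, then 0.954 and 2.62 CPM in wild type, and 1.45, then 7.44 and 1.78, then 9.36 and 8.35 CPM in null libraries. It was above the same-day wild type libraries in all 5 null libraries, at day 8 by as little as 6 counts against 5. Neither genotype passed the test of day 8 against day 0 (log2 fold change 1.45, SE 0.93, adjusted p = 0.242 in null cultures, edgeR).

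The 3 tested Hox genes called in no comparison and under the 10 CPM rule for naming were Hoxa3, Hoxb2 and Hoxd10. They ranged from 0 to 8.91 CPM over all libraries. Their fold changes from day 0 to day 8 were positive in both genotypes but were not called.

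All 6 tested Hoxc genes were called higher at day 8 than at day 0 in wild type and 5 of 6 in null cultures. Hoxc4 had 0, then 6.27 and 6.01, then 11.8 and 12.9 CPM in wild type, and 1.74, then 8.16 and 3.27, then 9.06 and 8.35 CPM in null libraries. It was the member of the cluster that did not pass in null cultures (log2 fold change 1.49, SE 0.65, adjusted p = 0.0902, edgeR), where its day 0 level was already 12 counts. Hoxc5 had 0, then 2.31 and 2.29, then 6.04 and 4.20 CPM in wild type, and 0, then 5.76 and 2.38, then 3.62 and 3.04 CPM in null libraries. Hoxc6 had 0, then 7.27 and 5.73, then 11.8 and 7.35 CPM in wild type, and 0, then 7.68 and 3.86, then 6.95 and 10.4 CPM in null libraries. Null values of Hoxc5 were above wild type at day 8, where null replicate 2 and wild type replicate 2 both had 8 counts. They were below wild type at day 14, and the interaction was not called (log2 difference -1.49, SE 0.88, adjusted p = 0.893, edgeR). Those of Hoxc6 overlapped wild type at both days. Hoxc8, a trunk gene, had 0, then 6.93 and 13.5, then 9.86 and 9.44 CPM in wild type, and 0, then 11.8 and 6.54, then 5.13 and 11.4 CPM in null libraries. Hoxc9 had 0.292, then 8.92 and 15.2, then 21.0 and 12.6 CPM in wild type, and 1.02, then 19.2 and 10.7, then 12.7 and 18.0 CPM in null libraries. The genotypes overlapped for both at days 8 and 14. Hoxc10, a hindlimb and lumbar gene, had 0.585, then 9.91 and 15.7, then 28.9 and 16.0 CPM in wild type, and 1.31, then 10.8 and 4.46, then 9.97 and 13.4 CPM in null libraries. Both null libraries of day 14 were below both wild type ones.

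In the Hoxd cluster, 4 of 6 tested genes were called higher at day 8 than at day 0 in wild type and 3 of 6 in null cultures. Hoxd1 had 0, then 2.64 and 2.58, then 0.318 and 0.262 CPM in wild type, and 1.45, then 1.20 and 3.27, then 0 and 0 CPM in null libraries. Hoxd3, which acts in the upper neck vertebrae, had 0, then 8.26 and 6.01, then 2.86 and 1.57 CPM in wild type, and 0.580, then 4.80 and 5.64, then 0 and 5.57 CPM in null libraries. Hoxd1 was thus low again by day 14 in both genotypes, and the null replicates of Hoxd3 at that day were far apart. Hoxd8, the highest Hoxd member per kb in wild type, had 0, then 18.5 and 16.3, then 12.1 and 17.3 CPM, and in null libraries 0.726, then 12 and 8.61, then 6.04 and 13.2 CPM. Hoxd9 had 0, then 10.2 and 10.3, then 1.59 and 1.84 CPM in wild type, and 0.145, then 4.56 and 5.05, then 1.81 and 2.28 CPM in null libraries. At day 8 the null libraries were below wild type for both, and at day 14 the Hoxd8 ranges overlapped. Hoxd11, a limb and kidney gene, had 0, then 1.32 and 3.15, then 4.77 and 6.03 CPM in wild type, and 0.145, then 5.52 and 2.08, then 5.13 and 10.4 CPM in null libraries, overlapping at both days. The level of Hoxd8 at day 8 was at least 19.8-fold that at day 0 in wild type, and the pooled ratio in null cultures was 14.5 (95% counting interval 5.94 to 45.8).

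The ES libraries, 1 per genotype, were compared by their counts alone and the difference was not tested. There were 3 members with 0 counts in wild type and 10 or more in the null library: Hoxc4 with 12 counts (at least 1.99-fold higher), Hoxb9 with 10 (at least 1.65-fold) and Hoxd1 with 10 (at least 1.65-fold). Hoxa7 went the other way, with 6 counts in wild type and 2 in the deeper null library, a null to wild type ratio of 0.165 (95% counting interval 0.0163 to 0.925). By cluster, Hoxa summed to 6.73 CPM in wild type and 5.22 CPM in null ES cells, Hoxb to 1.46 and 2.47 CPM, Hoxc to 1.46 and 5.08 CPM and Hoxd to 1.46 and 4.21 CPM. These bounds and intervals cover counting error only.

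From day 8 to day 14 few members passed the test, and several that did not pass had large fold changes with wide errors, among them Hoxd3 (-1.70 on the log2 scale, SE 0.93) and Hoxd11 (1.23, SE 0.69) in wild type. In wild type 1 of 27 was called, Hoxd9, which fell by 2.57 on the log2 scale (SE 0.53, adjusted p = 0.0183, edgeR), where 4.04% of all genes were called and 1.57% were called lower. At an unadjusted p under 0.05 there were 3 of 27 in wild type (Hoxa9, Hoxd1 and Hoxd9, all lower), beside 16.5% of all genes. Both wild type libraries of day 14 lay far below both of day 8. The call of Hoxd9 was lost when any 1 of the 4 wild type libraries of these days was left out (adjusted p 0.105 to 0.153) and by DESeq2 (adjusted p = 0.0978). In null cultures its log2 fold change was -1.26 (SE 0.54, adjusted p = 0.191), and the interaction of genotype and day was not called either (log2 difference 1.31, SE 0.77, adjusted p = 0.892). In null cultures 1 of 27 was called lower, Hoxd1, which went from 16 counts over the day 8 libraries to 0, at least 5.14-fold lower (adjusted p = 0.0493, edgeR), where 7.69% of all genes were called and 3.41% were called lower. With Hoxd9 there were 2 of 27 at an unadjusted p under 0.05, beside 21.6%. In wild type Hoxd1 went from 17 counts to 2, a ratio of 0.110 (95% counting interval 0.0124 to 0.465, adjusted p = 0.188). The Hoxd1 call rests on few counts. It was lost without any 1 of the wild type libraries of days 8 and 14 or the null libraries of day 14. Without null day 8 replicate 2, Hoxd1 was no longer tested. The call was also lost in a fit scaled within each chromosome (adjusted p = 0.0504, edgeR). The median log2 fold change from day 8 to day 14 over the tested Hoxd genes was -1.17 in wild type and -0.51 in null cultures, over the Hoxc genes 0.65 and 0.25, over Hoxa 0.20 and -0.24 and over Hoxb 0 and 0.18, against 0 and -0.01 over all genes.

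The comparison of genotypes asks whether Hox genes are released or lost without Rybp. Few differences passed. At day 8 edgeR called 0 of 27 Hox genes, beside 1.26% of all genes (0.506% higher and 0.759% lower), and at day 14 it called 0 of 27, beside 0.613% (0.259% higher and 0.354% lower). DESeq2 also called 0 at each day. At an unadjusted p under 0.05 there were 5 of 27 at day 8 (Hoxa10, Hoxb7, Hoxb8 and Hoxb9 higher, Hoxd9 lower), beside 13.4% of all genes, and 1 of 27 at day 14 (Hoxb9), beside 12.9%. For Hoxa10 the day 8 log2 fold change was 1.47 (SE 0.55, adjusted p = 0.256), with the null libraries at 24.7 and 20.2 CPM against 10.2 and 6.30. For Hoxb8 it was 1.20 (SE 0.49, adjusted p = 0.313), for Hoxb7 0.95 (SE 0.42, adjusted p = 0.349) and for Hoxd9 -1.08 (SE 0.47, adjusted p = 0.348). At day 8 both null libraries exceeded both wild type libraries for 8 of 27 members, 3 in Hoxa, 4 in Hoxb and 1 in Hoxc, where 20.1% of all genes did so. They were below for 4 of 27, all in Hoxd (Hoxd3, Hoxd8, Hoxd9 and Hoxd10), where 21.8% of all genes were. At day 14 they exceeded wild type for 5 of 27 (Hoxa7, Hoxa9, Hoxa13, Hoxb5 and Hoxb9; 21.6% of all genes) and were below for 4 (Hoxc4, Hoxc5, Hoxc10 and Hoxd1; 21.9%). Over both days together Hoxa7 alone was above, where 4.48% of all genes were, and no member was below, where 3.24% were.

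Averaged over days 8 and 14, edgeR called 1 of 27, Hoxb9, beside 4.41% of all genes called, 2.33% higher and 2.08% lower. Its log2 fold change was 2.29 (SE 0.58, adjusted p = 0.0442, edgeR). Its null libraries were above the wild type libraries of the same day at both days. Of all genes 20.1% were so at day 8 and 21.6% at day 14. At day 8 null replicate 2 had 6 counts of Hoxb9 and wild type replicate 2 had 5. This order restates the values behind the call. The call was lost when 7 of the 8 libraries of these days were left out in turn, all but null day 8 replicate 2 (log2 fold change 1.58 to 2.99), and by DESeq2 (2.33, adjusted p = 0.0754). At an unadjusted p under 0.05 there were 8 of 27, beside 18.3% of all genes. Of these 6 were higher in null cultures (Hoxa7, Hoxa9, Hoxa10, Hoxb5, Hoxb8 and Hoxb9) and 2 lower (Hoxc10 and Hoxd8). The log2 fold changes of the uncalled ones were 1.11 for Hoxa10 (SE 0.38, adjusted p = 0.133), 1.06 for Hoxa7 (SE 0.42, adjusted p = 0.188), 0.78 for Hoxa9 (SE 0.33, adjusted p = 0.229), 0.80 for Hoxb5 (SE 0.36, adjusted p = 0.265), 0.94 for Hoxb8 (SE 0.35, adjusted p = 0.169), -0.82 for Hoxc10 (SE 0.33, adjusted p = 0.204) and -0.67 for Hoxd8 (SE 0.30, adjusted p = 0.26). Hoxa10 leaned on null day 14 replicate 2: it was 0.40 without that library and, without null day 14 replicate 1, 1.46 and called (adjusted p = 0.0126). The genotype by day interaction called 0 Hox genes and 0 of all genes, with 0 Hox genes and 6.08% of all genes at an unadjusted p under 0.05. DESeq2 called 0 Hox genes and 4 of all genes.

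**Figure D3:**
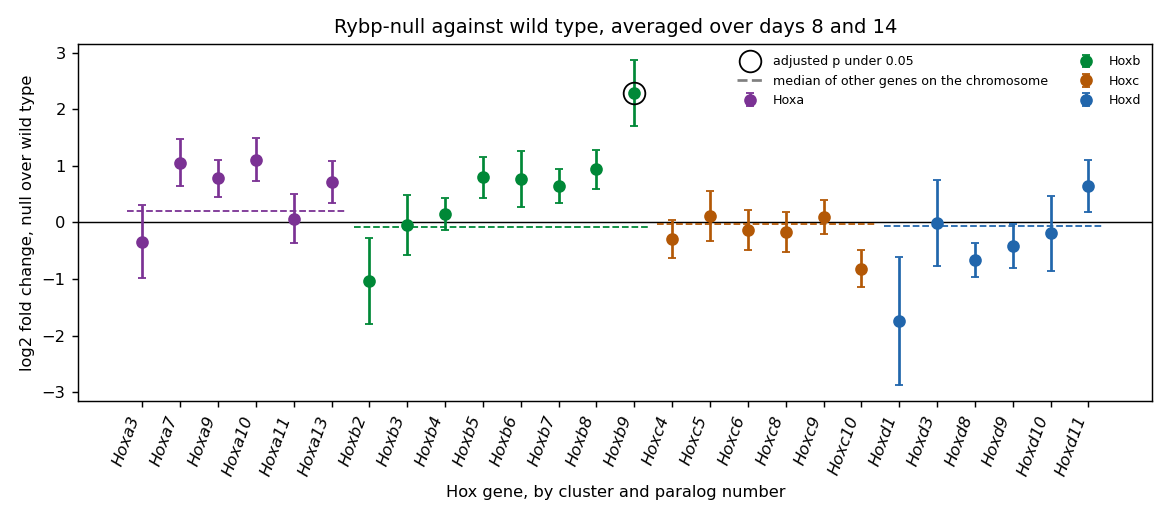
Log2 fold change of 26 tested Hox genes, Rybp-null over wild type averaged over days 8 and 14, with bars of 1 SE and genes ordered by cluster and paralog number. Dashed lines give the median of other genes on the chromosome of each cluster, and the ring marks Hoxb9, the 1 gene with an adjusted p under 0.05.

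The direction of the fold changes is given by cluster as a description, and differences between clusters were not tested. The median log2 fold change averaged over both days was 0.72 over the 7 Hoxa genes, with 5 positive, and 0.71 over the 8 Hoxb genes, with 6 positive. It was -0.15 over the 6 Hoxc genes, with 2 positive, and -0.31 over the 6 Hoxd genes, with 1 positive, against 0 over all genes, of which 49.7% were positive. Of the other genes of chromosome 6, 65.2% were positive. At day 8 the medians were 0.64, 0.66, -0.09 and -0.58 for Hoxa, Hoxb, Hoxc and Hoxd, and at day 14 they were 0.75, 0.51, -0.37 and 0.32, so Hoxd did not keep its sign and had 4 of 6 positive at day 14. On the same scale the other genes of chromosome 6 had a median of 0.22 at day 8 and 0.19 at day 14, which is to be read beside the Hoxa values. Cardiomyocyte markers were lower in the null cultures at both days, as given above, and the part of this shift in the Hox values was not tested. Mesenchyme and fibroblast markers, none of 9 called between genotypes, summed to 8630 to 10500 CPM in wild type and 5050 to 8810 CPM in null cultures at day 8, and to 11900 to 12200 and 13900 to 14500 CPM at day 14. Markers of caudal progenitors, a cell type with open posterior Hox genes, summed to 7.60 to 12.6 and 22.3 to 24.4 CPM at day 8. Most of that was Nkx1-2 (6.60 and 10.9 against 20.7 and 22.0 CPM, log2 fold change 1.29, SE 0.46, adjusted p = 0.23), with Cdx1, Cdx4, Wnt3a and T at 0 in all 4 libraries of day 8. At day 14 the caudal sums were 0.787 to 3.18 CPM in wild type and 0.604 to 1.77 CPM in null cultures, and overlapped. Trophoblast markers summed to 41.3 to 43.5 and 243 to 281 CPM at day 8, and to 84.7 to 192 and 347 to 541 CPM at day 14. Of the trophoblast markers, 3 of 6 were called higher in null cultures averaged over both days (Gata3, Krt7 and Rhox6). Averaged over both days, 2 of 8 pluripotency markers and 2 of 5 parietal endoderm markers were called higher in null cultures, 2 of 7 endoderm markers lower, and 1 higher and 2 lower of 8 blood markers and of 6 endothelial markers. Over all genes 2.33% were called higher and 2.08% lower. Blood markers summed to 849 to 894 CPM in wild type and 946 to 2660 CPM in null cultures at day 8, and endothelial markers to 420 to 451 and 269 to 319 CPM. At day 14 the blood sums stood in the other order, 164 to 209 CPM in wild type and 64.3 to 84.8 CPM in null cultures. Endothelial markers then summed to 148 to 198 and 99.0 to 144 CPM. Neural and paraxial mesoderm markers had 0 called of 6 and of 1. The part of these cells in the Hox values was not tested either.

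**Figure D4:**
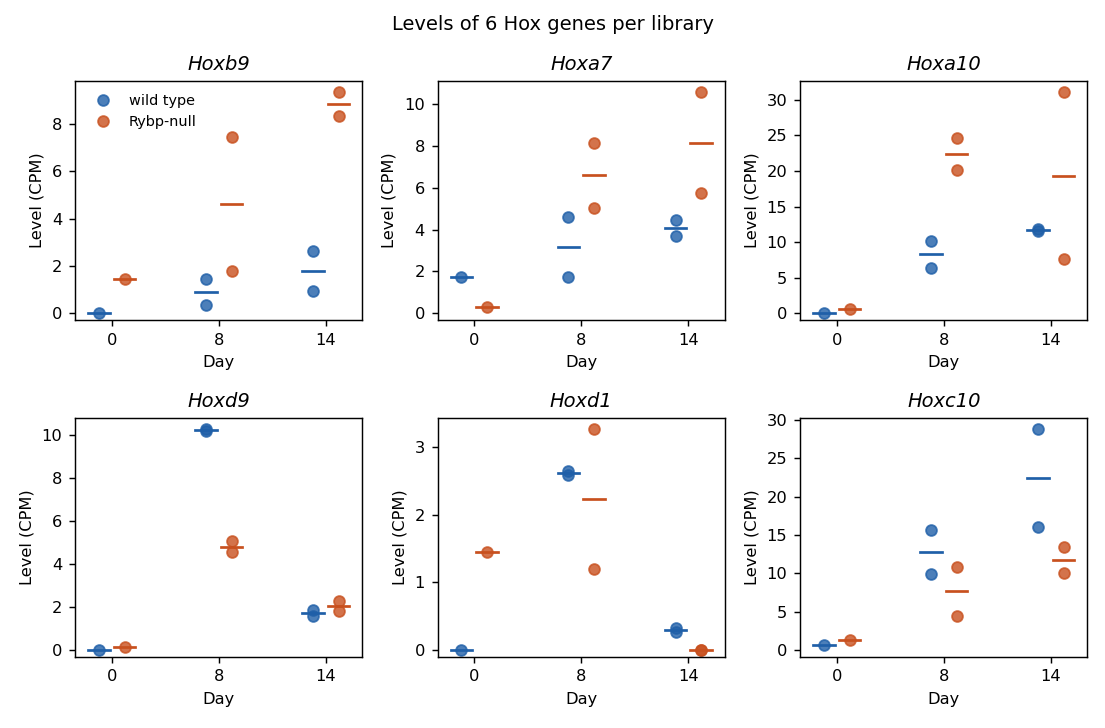
Level (CPM) of Hoxb9, Hoxa7, Hoxa10, Hoxd9, Hoxd1 and Hoxc10 by day (at equal spacing, each gene on its own scale), wild type in blue and Rybp-null in orange, with 1 point per library, offset sideways by genotype, and short bars at the group means. Hoxb9 is higher in null libraries at each day, Hoxd9 is highest in the 2 wild type libraries of day 8, and Hoxd1 is at 0 in both null libraries of day 14.

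Genes that act on or with the clusters were read from lists. The list of 11 cofactors held TALE partners of Hox proteins (PBX, MEIS, PKNOX and a relative) and Gmnn, which is not a TALE gene. Here and below, rose and fell mean called higher and lower by edgeR. Of the 11, 7 rose and 1 fell from day 0 to day 8 in wild type, and 7 rose and 2 fell in null cultures. Over all genes the shares were 21.2% higher and 19.3% lower in wild type and 19.0% and 18.6% in null cultures. Between genotypes 1 of 11 was called, averaged over both days, beside 4.41% of all genes. Pbx3 had 108 and 80.2 CPM at day 8 and 83.3 and 82.6 CPM at day 14 in wild type, against 53.1 and 30.3 and then 31.4 and 37.5 CPM in null cultures. All 4 null libraries were below all 4 wild type ones, as was the case for 3.24% of all genes. Averaged, Pbx3 was at -1.21 on the log2 scale (SE 0.20, adjusted p = 0.00599, edgeR), and it was called without each library in turn and in the other 8 settings. Meis1 was next at -0.62 (SE 0.16, adjusted p = 0.0532), with 110 and 122 CPM against 70.4 and 46.0 CPM at day 8, and Meis2 followed at -0.43 (SE 0.12, adjusted p = 0.0673). No gene of this list passed at a single day. Meis1 was at -0.97 at day 8 (SE 0.23, adjusted p = 0.0713), and Gmnn, a Hox-binding inhibitor of replication licensing, was at -0.49 at day 14 (SE 0.40, adjusted p = 0.701).

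Of 18 tested genes of the retinoic acid pathway, 7 rose and 1 fell from day 0 to day 8 in each genotype. The shares over all genes were 21.2% higher and 19.3% lower in wild type, and 19.0% and 18.6% in null cultures. Between genotypes, averaged over both days, 1 was called higher and 1 lower, beside 2.33% and 2.08% of all genes. Rarg, a retinoic acid receptor, had 1.32 and 1.72 CPM at day 8 and 2.54 and 2.89 CPM at day 14 in wild type, against 5.28 and 6.54 and then 6.64 and 6.58 CPM in null cultures (log2 fold change 1.60, SE 0.35, adjusted p = 0.0237, edgeR). Dhrs3, which turns retinal back to retinol, had 133 and 114 CPM at day 8 in wild type against 51.1 and 41.0 CPM, and 264 and 432 against 222 and 372 CPM at day 14. Its log2 fold change was -1.40 at day 8 (SE 0.30, adjusted p = 0.0473) and -0.82 averaged (SE 0.21, adjusted p = 0.0455). The null libraries were above wild type at both days for Rarg, where 20.1% of all genes were at day 8 and 21.6% at day 14. For Dhrs3 they were below wild type at day 8, where 21.8% of all genes were. The Rarg call was lost by DESeq2 (log2 fold change 1.61, adjusted p = 0.0792) and without any 1 wild type library (log2 fold change 1.51 to 1.70). That of Dhrs3 at day 8 was lost without any 1 library of that day (-1.61 to -1.22). It was also lost in edgeR with scaling within each chromosome (adjusted p = 0.072) and with the replicate block (adjusted p = 0.0684). Averaged, Dhrs3 was lost without any 1 library except wild type day 14 replicate 1 and null day 14 replicate 2 (adjusted p 0.0946 to 0.199), with scaling within each chromosome (0.0834) and with the block (0.0564). Nr2f2, a nuclear receptor, came next averaged (-0.65, SE 0.18, adjusted p = 0.0645). Smallest at day 14 were Rdh10 (0.85, SE 0.28, adjusted p = 0.207), Crabp1 (-1.62, SE 0.60, adjusted p = 0.259) and Rarg (1.25, SE 0.46, adjusted p = 0.26), none of which passed. From day 8 to day 14, 5 of the 18 rose and 0 fell in wild type, and 7 rose and 2 fell in null cultures, beside 2.47% of all genes higher and 1.57% lower in wild type and 4.29% and 3.41% in null cultures. Among them Aldh1a1, which makes retinoic acid, went from 0 and 0.573 to 93.2 and 120 CPM in wild type and from 0.961 and 0.297 to 38.7 and 108 CPM in null cultures.

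Of 14 listed regulators upstream of the clusters, 7 had enough counts, and none was called between genotypes. The smallest p averaged belonged to Egr2, which drives hindbrain Hox genes (-1.12, SE 0.42, adjusted p = 0.164), then to Gbx2 (1.99, SE 1.61, adjusted p = 0.568) and Gdf11 (0.25, SE 0.22, adjusted p = 0.605). At single days, Kmt2a, which methylates histones at active Hox genes, was at 0.14 (day 8, adjusted p = 0.774) and its partner Men1 at -0.25 (day 14, adjusted p = 0.78). From day 0 to day 8, 3 of the 7 rose and 1 fell in each genotype. The shares over all genes were 21.2% higher and 19.3% lower in wild type, and 19.0% and 18.6% in null cultures. Cdx2 had 0.859 to 0.991 CPM in wild type and 1.68 to 2.38 CPM in null cultures at day 8 and was not tested, and Cdx4 had 0 counts in all 10 libraries.

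Of 20 listed noncoding genes inside the clusters, 17 were in the table and 7 were tested. From day 0 to day 8, 2 rose and 1 fell in wild type and 5 rose and 1 fell in null cultures. The shares over all genes were 21.2% higher and 19.3% lower in wild type, and 19.0% and 18.6% in null cultures. From day 8 to day 14 edgeR called 0 of 7 in each genotype. Halr1, at the anterior end of Hoxa, had 31.9 CPM in wild type and 26.8 CPM in null ES cells and 0 counts in all 4 libraries of day 8, at least 69.3-fold and 67.4-fold lower, opposite to the coding genes. Hoxd3os1, antisense to Hoxd3, had 9.25 and 9.16 CPM at day 8 and 6.36 and 3.93 CPM at day 14 in wild type, against 3.84 and 1.49 and then 0.906 and 1.52 CPM in null cultures. All 4 null libraries were below all 4 wild type ones, which held for 3.24% of all genes. The log2 fold change averaged over both days was -1.88 (SE 0.45, adjusted p = 0.0343, edgeR). That call was lost on leaving out any 1 library of days 8 and 14 but null day 8 replicate 1, by DESeq2 and with scaling within each chromosome (adjusted p 0.0537 to 0.129). Hoxd3 itself was at -0.01 (adjusted p = 1). The strand setting of the counting is not given in the sources used here, so reads of Hoxa3, Hoxa7, Hoxa11, Hoxb2, Hoxb3, Hoxb5 and Hoxd3 and of the antisense genes that overlap their exons cannot be told apart. Hoxc5 and Hoxc10 share 166 bases of exon on the same strand, and Hoxd3 shares exon with Hoxd4. Hoxb9 and Hoxd9 overlap no exon of another gene in the annotation used.

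Among 19 tested neighbours just outside the clusters, 2 rose and 5 fell from day 0 to day 8 in wild type and 2 rose and 7 fell in null cultures, beside 21.2% of all genes higher and 19.3% lower in wild type and 19.0% and 18.6% in null cultures. Between genotypes 1 of 19 was called, averaged, where 4.41% of all genes were. It was Hnrnpa1, beside Hoxc, at -0.67 (SE 0.16, adjusted p = 0.0343, edgeR), with 695 and 712 CPM against 343 and 604 CPM at day 8. The call was lost without any 1 wild type library or null day 14 replicate 2 (adjusted p 0.0894 to 0.131) and with the replicate block (0.0608). Of 5 tested homeobox genes of the same class outside the clusters, 1 was called averaged over both days, where 4.41% of all genes were. This was En1 on chromosome 1, a midbrain and somite gene. It had 3.96 and 4.29 CPM at day 8 and 9.86 and 9.18 CPM at day 14 in wild type, against 8.40 and 9.21 and then 30.5 and 26.6 CPM in null cultures (averaged log2 fold change 1.33, SE 0.25, adjusted p = 0.0107). Null libraries were above wild type at both days, where 20.1% of all genes were at day 8 and 21.6% at day 14. The En1 call was lost with scaling within each chromosome (0.93, adjusted p = 0.0717, edgeR). It was also lost without wild type day 8 replicate 1, day 8 replicate 2 or day 14 replicate 2 (log2 fold change 1.3 to 1.37).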

How the data were processed

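The 10 RNA-seq libraries, from ES cells and cultures of either genotype, fell into 6 groups of genotype and day. The authors deposited whole-number read counts per Ensembl gene, not normalized. Per the submitters' processing notes the tools were TopHat, HTSeq and DESeq (no versions) and the build mm9. Annotation, strand and counting options: not given in the sources used here. Library totals of 3028153 to 6890792 counts leave wide counting errors under a few CPM. Symbols matched 30946 of 36191 IDs; 5245 IDs have none.

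Counts were tested with edgeR 4.0.16 (R 4.3.3): filterByExpr with minimum count 10 (15819 genes kept), TMM scaling, a robust quasi-likelihood fit of all 10 libraries with 1 coefficient per group (4 residual degrees of freedom, common biological coefficient of variation 0.214), two-sided, Benjamini-Hochberg over all genes tested in a comparison, called at an adjusted p under 0.05. Because a day 0 group holds 1 library, a gene could pass the filter through 1 library. Each SE is the size of the log2 change divided by the root of its F statistic, and so restates the unadjusted p. The averaged comparison is the mean of the day 8 and day 14 differences. DESeq2 1.42.0 was an alternative, beside other scaling, filters, dispersion, blocks and left-out libraries. The script was tested on simulated data. Folds against 0 counts use a floor of 3 counts over the group. Where a group had 1 to 3 counts, or where stated, the ratio of pooled CPM has a 95% exact binomial counting interval (SciPy 1.17.1). Exon lengths, overlaps and chromosomes come from GENCODE vM21, on GRCm38, not mm9, so only RefSeq windows carry coordinates.

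Named with every library's value are the 24 Hox genes called in any comparison or with a group mean of at least 10 CPM, except that the values of 1 of them are not reported here (it stays in counts, medians and sums); pathway genes are named where called between genotypes or, for the cofactor, retinoic acid and upstream lists, where among the 3 smallest p. Aldh1a1, Halr1, Cdx2, Cdx4, Nkx1-2 and the called trophoblast markers were named after their values were seen. The members and lists were chosen with earlier results of these data known.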

Additional observations from a re-analysis of the deposited data

How the results depend on the processing

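Without the low count filter, 1 Hox gene was called at day 8 (Hoxa10), 1 at day 14 (Hoxb9) and 2 averaged (Hoxa10 and Hoxb9), while the calls over all genes went from 200 to 708, 97 to 637 and 697 to 1396, and from 639 to 1244 (wild type) and 1217 to 1892 (null) between days 8 and 14, and from 0 to 65 for the interaction. DESeq2 called 0 Hox genes averaged and 0 for day 14 against day 8 in either genotype, and 200 genes in all at day 14 against 97. TMM within each chromosome left 0 Hox genes for day 14 against day 8 in null cultures and gave 385 calls averaged against 697. DESeq2 gave Hoxd1 no adjusted p for day 14 against day 8 in null cultures, so the 0 Hox genes there do not speak to Hoxd1. For the other changes the cause was not tested. With days 8 and 14 alone, Hoxd1 was no longer tested, which left 0 Hox genes for day 14 against day 8 in null cultures.

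Replicate numbers are shared between groups, but the labels do not say that they pair libraries, and with 2 numbers the deviations of same-numbered libraries correlated at 0.14 between genotypes at day 8, 0.26 at day 14 and -0.45 between the null days (4895 genes). With the replicate block, fitted on days 8 and 14 alone, edgeR called 0 Hox genes averaged (all genes 516, Hoxb9 adjusted p 0.0743). For day 14 against day 8 in null cultures it called 0 (all genes 985), as did the fit of these days without a block. The block changed no other Hox count. Crossing the null day 14 numbers, chosen after seeing the data, gave 0 Hox genes and 1237 calls there. Hoxd1 was not tested in any of these fits, so the 0 Hox genes there do not speak to the pairing.

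Leaving out 1 library at a time gave 0 to 1 Hox genes averaged and for day 14 against day 8 in each genotype, 0 at day 8, day 14 and for the interaction, 16 to 21 from day 0 to day 8 in wild type and 17 to 21 in null cultures. All-gene calls ranged from 28 to 324 at day 8, 14 to 301 at day 14, 183 to 1050 averaged, and between days 8 and 14 from 108 to 935 in wild type and 613 to 1243 in null. Of the day 8 against day 0 calls, 15 of 19 and 16 of 20 held in each such fit. The ones lost at least once were Hoxb3, Hoxc5, Hoxd3 and Hoxd11 in wild type and, among those reported here, Hoxb3, Hoxc10 and Hoxd11 in null. None of the 62 gene fold changes that were recomputed changed sign in a setting run.

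Scaling moved 4 summed levels by more than 1 SD: Hoxa in wild type to 61.9 (day 8) and 54.6 CPM (day 14) with scaling to other genes of chromosome 6, wild type Hoxa to 48.2 CPM (day 14) and Hoxd to 41.3 CPM (day 8) with TMM library sizes. With scaling to other genes of chromosome 6, null Hoxa was at 81.2 CPM at day 8 and 66.1 CPM at day 14. The Hoxa means of the genotypes were thus closer than without it (54.3 and 84.5 CPM at day 8, 50.1 and 74.1 CPM at day 14). At this depth, members with 1 to 3 counts in a group have ratios with wide counting intervals.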
